A study of Mus musculus with 18 samples.

Results

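Obstructed kidneys from mice with a deletion of Myc in the renal tubule were compared with obstructed wild-type kidneys, with 3 libraries of whole-kidney RNA in each group. These 6 libraries were chosen by their labels out of 18 in the series. In unilateral ureteral obstruction (UUO), a model of kidney fibrosis, 1 ureter is blocked and the kidney above it loses tubules and gains matrix. The Myc cKO UUO group carried GGT-Cre and 2 floxed Myc alleles ("+ FF"), on a mixture of C57BL6 and Balb/c, at 11 to 12 weeks of age. GGT-Cre is driven by the promoter of the gamma-glutamyl transferase gene, which is active in proximal tubule cells. The WT UUO group was drawn from the endothelial Cdh5-CreERT2;Twist line, on a mixture of C57BL6, 129sv and Balb/c, at 12 weeks. WT UUO replicates 1 and 2 carried that Cre without floxed alleles ("+ ++"), and replicate 3 carried floxed Twist without Cre ("- FF"). The 2 groups therefore differed in Cre line and in the strains mixed as well as in Myc, and these cannot be told apart here; no Cre-negative littermate of the Myc line with an obstructed kidney was among the libraries. For reference, values are also given for 3 obstructed kidneys with endothelial deletion of Twist (Cdh5-CreERT2, strains as in WT UUO), 3 with endothelial deletion of Snail (Cdh5-CreERT2, strains as in Myc cKO UUO), 3 contralateral unobstructed kidneys and 3 healthy kidneys. The healthy kidneys (Cre-negative, floxed Twist) and contralateral kidneys (genotypes as in WT UUO) came from the Cdh5-CreERT2;Twist line at 12 weeks, and both endothelial knockouts were 12 weeks old as well. The sources used here do not give the days of obstruction.

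Myc is a transcription factor that binds DNA with its partner Max, preferentially at the E-box CACGTG, and drives genes for ribosome assembly, nucleotide synthesis and glycolysis. The proximal tubule reabsorbs most of the filtered glucose, amino acids and protein, and fuels this work chiefly by burning fatty acids in mitochondria. In fibrosis, tubule cells are known to lose their transporters and this oxidative metabolism, while fibroblasts turn into matrix-producing myofibroblasts. The series asks, by its title, whether Myc mediates a change of metabolism in the tubules of fibrotic kidneys.

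Levels are CPM, counts scaled to library size with TMM factors (trimmed mean of M-values). Differences are log2 fold changes of Myc cKO UUO against WT UUO with their standard errors, and a gene is said to have risen or fallen when its adjusted p was under 0.05. Total counts ran from 59539589 to 62038978 in WT UUO and from 56724039 to 72150950 in Myc cKO UUO. Mitochondrial ribosomal RNA took 19.2%, 19.2% and 20.3% of the counts in WT UUO against 25.4%, 32.1% and 34.9% in Myc cKO UUO. On the first principal component of all 18 libraries, which ran from the unobstructed kidneys at negative values to the obstructed ones at positive values, WT UUO libraries stood at 110.3, 90.3 and 78.4 and Myc cKO UUO libraries at 60.3, 47.3 and -4.80, so that WT UUO replicate 1 and Myc cKO UUO replicate 3 stood farthest apart. By Xist and Ddx3y, WT UUO held 2 females and 1 male and Myc cKO UUO 2 males and 1 female. Myc cKO UUO libraries also read low on transcripts rich in guanine and cytosine (GC): over 9728 genes, the Spearman correlation of a library's deviation with transcript GC content was -0.52, -0.61 and -0.22 in Myc cKO UUO, against 0.02 to 0.11 in WT UUO.

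**Figure D1:**
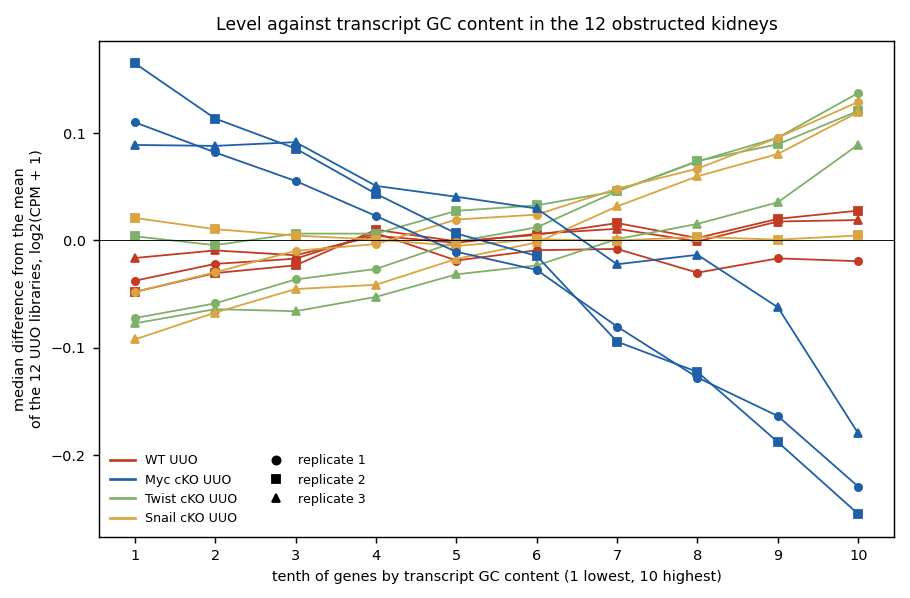
Median difference of each obstructed kidney's levels from the mean of the 12 obstructed kidneys (log2(CPM + 1)), for genes in 10 bins of equal size by transcript GC content. Lines are libraries colored by group. The 3 Myc cKO UUO lines fall from left to right, reaching -0.23, -0.25 and -0.18 in the highest bin, while WT UUO lines stay within 0.05 of 0.

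Myc itself, on chromosome 15 (61985391 to 61990374, mm10), was measured first as a check of the labels. It stood at 22.1, 23.8 and 21.8 CPM in WT UUO against 18.8, 19.8 and 10.8 in Myc cKO UUO. The groups did not overlap, replicate 3 of Myc cKO UUO was the lowest, and the difference of -0.45 ± 0.23 missed the threshold (adjusted p = 0.217). Contralateral kidneys had 4.10 ± 0.556 CPM (mean ± SD, n = 3), so Myc transcripts in the Myc cKO UUO kidneys stayed above the unobstructed level. The RNA came from whole kidney and was counted over the whole gene, so transcripts of cells outside the tubule, and any that lack only the deleted exons, were counted too. Ggt1, whose promoter drives the Cre, stood at 38.6, 105.5 and 75.7 CPM in WT UUO against 141, 86.5 and 185 in Myc cKO UUO, overlapping groups (difference 0.91 ± 0.42, adjusted p = 0.172).

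Pvt1, the long noncoding RNA gene that starts 47612 bases past the end of Myc, stood at 5.38, 5.69 and 3.54 CPM in WT UUO against 10.8, 7.12 and 6.43 in Myc cKO UUO, every Myc cKO UUO library above every WT UUO one. Its difference of 0.74 ± 0.29 missed the threshold against WT UUO (adjusted p = 0.114). Against the average of the Twist and Snail knockouts it was 1.12 ± 0.25 (adjusted p = 0.018; 0.0832 with the levels corrected for transcript GC content). Of 78 genes tested within 10 Mb of Myc, 5 were higher and 2 lower, 8.97% against 12.2% of all genes.

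Across 21050 genes tested, 2572 (12.2%) differed between Myc cKO UUO and WT UUO, 1117 higher (5.31%) and 1455 lower (6.91%). The groups did not overlap in 31.8% of all genes. These calls lean on the spread shared by all 6 groups: a fit on the 6 libraries alone called 5 genes (Arg1, Gm26917, Gpc1 and Trim12a lower, Serpina1f higher) with 4743 at an unadjusted p under 0.05. They also lean on WT UUO replicate 1 and Myc cKO UUO replicate 3. Without the former 797 genes were called, without the latter 974 and without both 287 (1.34%, with 0.275% higher and 1.06% lower). All 2572 kept the sign of their difference without both, but 2476 of them had groups that did not overlap. For those genes leaving out libraries could hardly change the sign, so the kept sign is no measure of how stable the calls are. A set of 659 genes, 229 higher and 430 lower, was called whichever 1 of the 6 libraries was left out, and 592 of them also after correction for transcript GC content. That correction called 1897 genes (9.01%), 1082 higher (5.14%) and 815 lower (3.87%). With sex as a covariate 2646 were called (12.6%), 1223 higher (5.81%) and 1423 lower (6.76%), and DESeq2 called 3817 (18.1%). The WT UUO libraries differed from each other in Cre genotype or in sex by Xist and Ddx3y, and so came from separate animals. In Myc cKO UUO, replicates 1 and 3 were both male, and the labels do not say whether they came from separate animals. The p-values therefore measure only the spread between these samples.

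The 12 largest rises included G6pc, of gluconeogenesis, and the carriers Slc22a22 and Slc6a19. The 12 largest falls began with Trim12a, Gvin1 and Trim5, neighbors on chromosome 7 that are described further on, followed by Ereg, Arg1 and Col6a4. G6pc, which releases free glucose as the last step of gluconeogenesis, stood at 4.26, 14.4 and 11.8 CPM in WT UUO against 33.1, 55.3 and 275 in Myc cKO UUO. All 3 Myc cKO UUO libraries were higher, replicate 3 by far the most, and the rise of 3.57 ± 0.79 had an adjusted p of 0.0122 (lost without WT UUO replicate 1 or Myc cKO UUO replicate 3, at 0.0623 to 0.0728). Slc22a22, a kidney transporter of the organic anion family, went from 0.437, 3.81 and 1.58 to 21.9, 14.6 and 29.5 CPM, a rise of 3.51 ± 0.97 (adjusted p = 0.0322; lost without WT UUO replicates 1 and 3 or Myc cKO UUO replicate 3, at 0.0931 to 0.122). Cyp4a31, a fatty acid hydroxylase gene, went from 9.14, 7.76 and 7.85 to 26.3, 25.7 and 105 CPM and rose by 2.67 ± 0.49 (adjusted p = 0.00518), a call held without any 1 library. Serpina1f, a member of the serine protease inhibitor family and the only gene called higher by the fit on the 6 libraries alone, went from 14.9, 20.4 and 16.2 to 71.0, 62.6 and 76.4 CPM and rose by 2.03 ± 0.33 (adjusted p = 0.00295). Igfbp1, a binding protein of insulin-like growth factors, stood at 2.29, 3.28 and 3.52 CPM in WT UUO against 3.91, 12.1 and 61.4 in Myc cKO UUO, so that its rise of 3.09 ± 0.71 (adjusted p = 0.0137) was largely that of replicate 3 (lost without WT UUO replicate 1 or Myc cKO UUO replicate 3, at 0.07 to 0.0835).

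Among the largest falls, Arg1, the arginase of alternatively activated macrophages, stood at 13.0, 16.3 and 10.7 CPM in WT UUO against 1.44, 0.811 and 0.851 in Myc cKO UUO and fell by 3.69 ± 0.73 (adjusted p = 0.00735). The epidermal growth factor receptor ligand Ereg went from 15.4, 7.06 and 8.41 to 1.51, 0.467 and 0.0448 CPM and fell by 3.93 ± 0.86 (adjusted p = 0.0118; lost without WT UUO replicate 1, at 0.0519). Fbln2, a matrix glycoprotein of elastic fibers and basement membranes, went from 135, 102 and 55.5 to 23.7, 8.29 and 4.85 CPM and fell by 2.99 ± 0.54 (adjusted p = 0.00475). Col6a4, a collagen VI chain, went from 33.7, 36.6 and 24.5 to 4.33, 4.10 and 0.298 CPM and fell by 3.44 ± 0.76 (adjusted p = 0.0117). For all 4 genes each Myc cKO UUO library lay below each WT UUO library. Gpc1, a heparan sulfate proteoglycan of the cell surface, went from 24.8, 25.6 and 25.9 to 12.2, 12.5 and 13.1 CPM and fell by 1.01 ± 0.19 (adjusted p = 0.00535). Gm26917, a noncoding RNA gene of unstated role, went from 752, 581 and 846 to 180.0, 177 and 154 CPM and fell by 2.09 ± 0.25 (adjusted p = 0.0012). Gpc1, Gm26917 and Serpina1f were singled out after their values were seen.

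**Figure D2:**
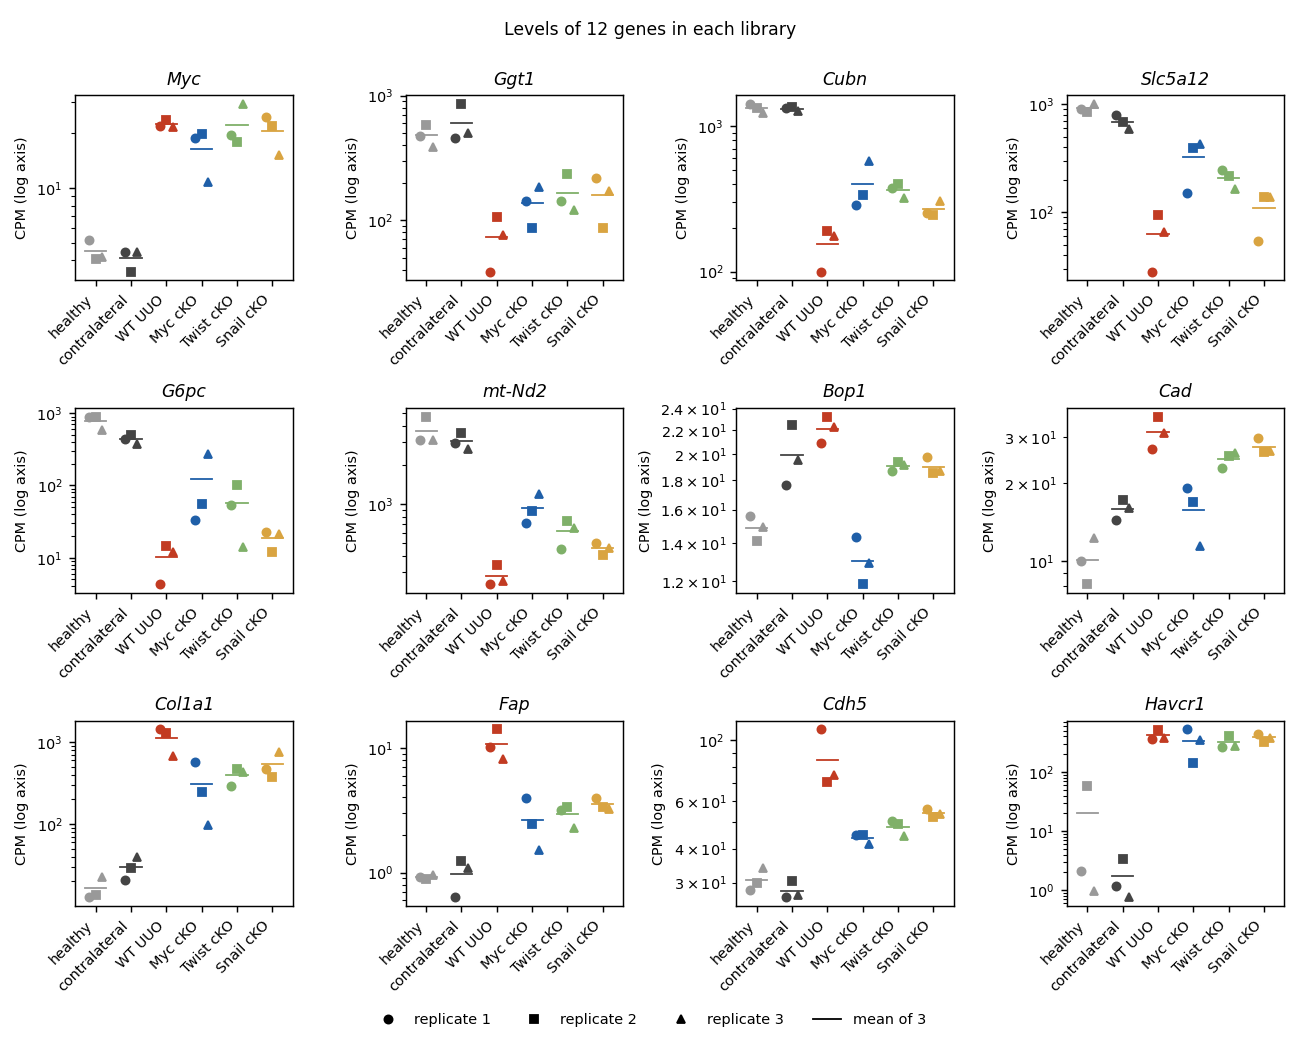
Levels of 12 genes (CPM, log axis) in each library, by group; symbols are replicates and lines the means of 3. Myc in Myc cKO UUO lies just below WT UUO, with 10.8 CPM in replicate 3, while Cubn, Slc5a12, G6pc and mt-Nd2 are higher and Bop1, Cad, Col1a1, Fap and Cdh5 lower in every Myc cKO UUO library than in every WT UUO library; Ggt1 and Havcr1 overlap.

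The proximal tubule's transport genes were higher in Myc cKO UUO. Of 33 such genes tested, 19 rose and 0 fell, with a median difference of 1.28 against 0.00 over all genes. Cubn, which with megalin takes up filtered protein, stood at 99.9, 189 and 174 CPM in WT UUO against 287, 337 and 573 in Myc cKO UUO. The groups did not overlap, and Cubn rose by 1.37 ± 0.24 (adjusted p = 0.00438) to levels still under the 1315 ± 38.8 CPM of contralateral kidneys. Lrp2, which encodes megalin, went from 416, 874 and 840.3 to 1202, 1646 and 2175 CPM, a rise of 1.24 ± 0.27 (adjusted p = 0.0109; lost without Myc cKO UUO replicate 3, at 0.0534). The lactate and monocarboxylate carrier Slc5a12 went from 28.1, 94.1 and 65.6 to 151, 391 and 432 CPM and rose by 2.37 ± 0.46 (adjusted p = 0.0064). Slc6a19, the main apical carrier of neutral amino acids, went from 9.79, 17.5 and 18.7 to 31.2, 81.9 and 192 CPM, a rise of 2.73 ± 0.55 (adjusted p = 0.00781). Here too replicate 3 of Myc cKO UUO was the highest and replicate 1 the lowest of its group.

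Other carriers of the proximal tubule were higher too. Slc4a4, the basolateral bicarbonate exit of the proximal tubule, stood at 357, 475 and 411 CPM in WT UUO against 645, 1014 and 1287 in Myc cKO UUO (difference 1.24 ± 0.21, adjusted p = 0.00381). The glucose carrier Slc2a2 went from 16.4, 39.7 and 19.8 to 66.9, 81.7 and 70.3 CPM, a rise of 1.53 ± 0.28 (adjusted p = 0.0047). Slc3a1, the heavy chain of the cystine carrier, went from 67.1, 111 and 113 to 178, 190.3 and 235 CPM and rose by 1.05 ± 0.19 (adjusted p = 0.00466). The sulfate carrier Slc13a1 went from 215, 518 and 249 to 801, 703 and 873 CPM; all 3 Myc cKO UUO libraries were above the 489 ± 101 CPM of contralateral kidneys. These 4 calls, and those of Cubn, Slc5a12 and Slc6a19, held without any 1 library. Over the transport list as a whole, the number that rose was 9 without WT UUO replicate 1, 8 without Myc cKO UUO replicate 3 and 8 to 20 over all 6 omissions, each leaving out 1 library. It was 1 with both left out, where the median was 0.87. With transcript GC content corrected 19 rose, and with sex as a covariate 22. In bulk kidney, more proximal tubule cells and more RNA of these genes per cell cannot be told apart.

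Enzymes and scaffolds of the brush border moved in the same direction. Of 28 tested, 12 rose and 0 fell, with a median of 1.27. Pdzk1, a scaffold that anchors apical carriers, went from 39.6, 78.6 and 59.1 to 137, 129 and 184 CPM and rose by 1.35 ± 0.28 (adjusted p = 0.00846). Tmem27, also called collectrin and needed for apical amino acid carriers, went from 69.8, 159 and 97.1 to 279, 284 and 382 CPM and rose by 1.54 ± 0.33 (adjusted p = 0.00987). Gsta2, a glutathione transferase, rose by 1.86 ± 0.40 (adjusted p = 0.0107; lost without WT UUO replicate 1, at 0.0559). The number risen was 2 without WT UUO replicate 1, 4 without Myc cKO UUO replicate 3, 6 without Myc cKO UUO replicate 2, and 0 with WT UUO replicate 1 and Myc cKO UUO replicate 3 both left out. Genes that are male-biased in mouse kidney had a median of 1.18, which was 0.10 with sex as a covariate. Of 11 such genes 0 passed the quasi-likelihood test of edgeR, 0 had an unadjusted p under 0.05 and DESeq2 called 0. The 3 female-biased genes tested were higher as well, with a median of 1.30, which was 1.85 with sex as a covariate. Of these 0 passed the test of edgeR, 1 had an unadjusted p under 0.05 and DESeq2 called 1.

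**Figure D3:**
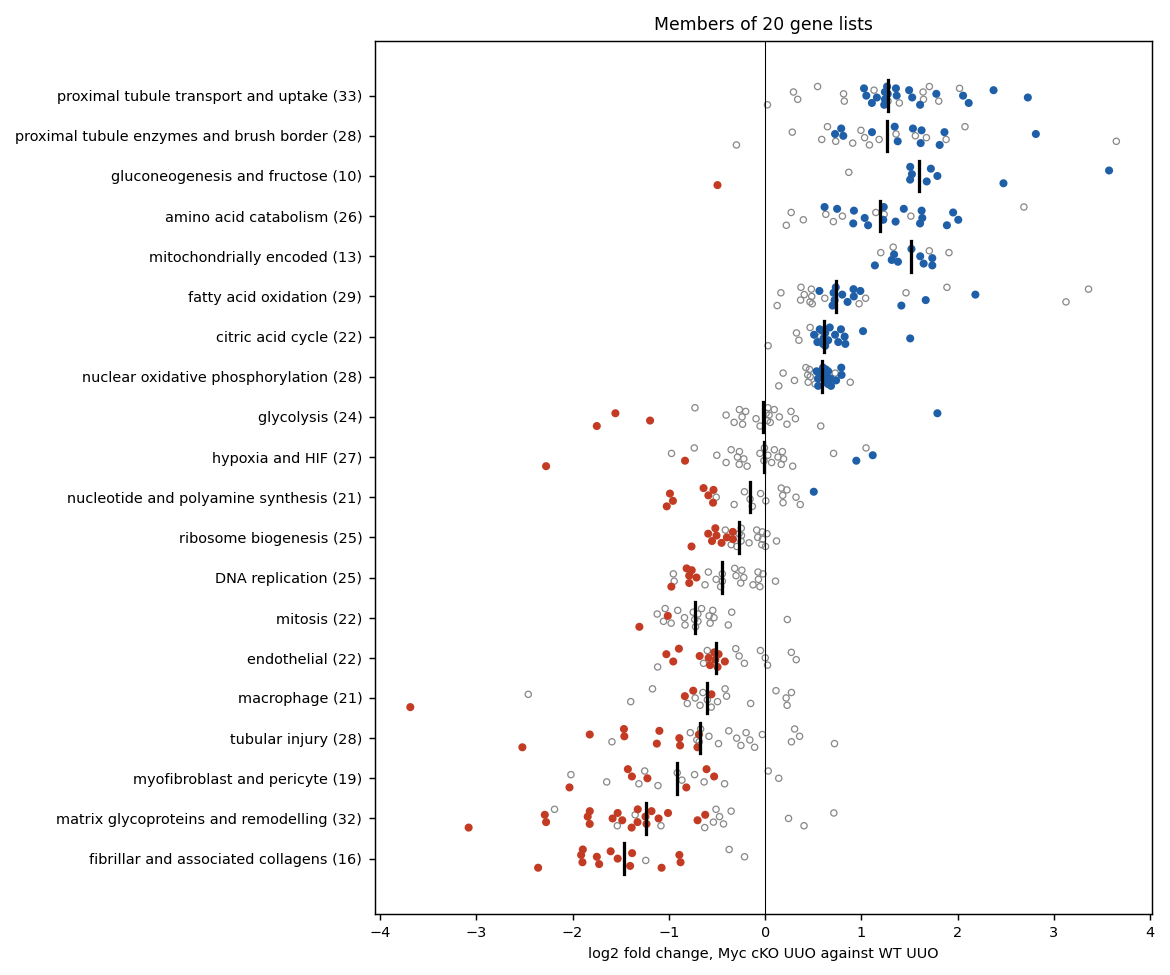
Log2 fold change of Myc cKO UUO against WT UUO for the tested members of 20 gene lists (number tested in brackets). Filled points passed the adjusted p threshold (blue higher, red lower), open points did not, and bars are medians. Proximal tubule and mitochondrial lists lie to the right of 0, with medians of 1.28 and 1.52 for transport and mitochondrially encoded genes, and matrix lists to the left, with -1.47 for collagens.

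Glucose-making and fructose enzymes rose together. Of 10 tested, 8 rose and 1 fell, with a median of 1.60. Pck1, the cytosolic enzyme that commits carbon to gluconeogenesis, stood at 59.2, 88.2 and 82.8 CPM in WT UUO against 182, 279 and 821 in Myc cKO UUO and rose by 2.48 ± 0.53 (adjusted p = 0.0104). Khk, which phosphorylates fructose, rose by 1.53 ± 0.33 (adjusted p = 0.0107; lost without WT UUO replicate 1 or Myc cKO UUO replicate 3, at 0.0504 to 0.0513). Pck2, the mitochondrial form of the Pck1 enzyme, was the single member that fell, from 26.6, 21.7 and 24.0 to 17.7, 17.0 and 16.5 CPM, by 0.50 ± 0.10 (adjusted p = 0.00735; lost without WT UUO replicate 1, at 0.0509). Most of these calls rest on single libraries: 1 member rose without WT UUO replicate 1 and 1 without Myc cKO UUO replicate 3, where Pck1 had adjusted p of 0.0566 and 0.0534.

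Genes of mitochondrial fuel use rose in all 3 lists of this kind. In fatty acid oxidation 13 of 29 genes rose and 0 fell (median 0.73), in the citric acid cycle 17 of 22 rose (0.62), and among nuclear subunits of oxidative phosphorylation 16 of 28 rose (0.59), with no fall in either. These counts rest on single libraries. For fatty acid oxidation the number risen was 2 without WT UUO replicate 1 or Myc cKO UUO replicate 3, 6 without WT UUO replicate 3, 8 without WT UUO replicate 2, and for the citric acid cycle 4 without WT UUO replicate 1 or Myc cKO UUO replicate 3, 10 without WT UUO replicate 2; with WT UUO replicate 1 and Myc cKO UUO replicate 3 both left out it was 0 and 0. Etfa and Etfb pass electrons from fatty acid oxidation to the respiratory chain. Etfa went from 30.9, 34.1 and 34.5 to 46.6, 51.6 and 64.7 CPM and rose by 0.71 ± 0.15 (adjusted p = 0.00808). Etfb went from 30.6, 34.5 and 35.4 to 55.0, 53.2 and 91.3 CPM and rose by 0.99 ± 0.20 (adjusted p = 0.00821). Acadm, the medium-chain acyl-CoA dehydrogenase, stood at 62.8, 93.0 and 80.2 CPM in WT UUO against 127, 112 and 207 in Myc cKO UUO, a rise of 0.92 ± 0.28 (adjusted p = 0.0423), lost without WT UUO replicates 1, 2 and 3 or Myc cKO UUO replicate 3, at 0.0548 to 0.217. Cpt1a, the gate for fatty acid entry into mitochondria, stood at 161, 159 and 176 CPM in WT UUO against 147, 189 and 358 in Myc cKO UUO, with only replicate 3 of Myc cKO UUO clearly above WT UUO (0.48 ± 0.23, adjusted p = 0.191).

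In the citric acid cycle the groups stood apart in every gene named here. Mdh1, a malate dehydrogenase, went from 117, 153 and 152 to 223, 277 and 353 CPM and rose by 1.02 ± 0.20 (adjusted p = 0.00632). Idh3a, of isocitrate dehydrogenase, went from 34.6, 43.1 and 41.0 to 57.0, 61.2 and 64.8 CPM and rose by 0.63 ± 0.13 (adjusted p = 0.00821). Suclg1, a subunit of succinyl-CoA synthetase, and Dld, a shared subunit of the 2-oxoacid dehydrogenases, rose by 0.79 ± 0.17 and 0.73 ± 0.15 (adjusted p = 0.00917 and 0.00928). These 4 calls held without any 1 library, and no other of the 22 genes in the citric acid cycle list did so. Those of Etfa and Etfb held as well. Of the respiratory chain, Cox6c, a subunit of cytochrome c oxidase, went from 71.9, 88.1 and 89.2 to 109, 147 and 176 CPM and rose by 0.79 ± 0.18 (adjusted p = 0.0122; lost without WT UUO replicate 1 or Myc cKO UUO replicate 3, at 0.062 to 0.0629). Atp5j, a subunit of ATP synthase, rose by 0.57 ± 0.13 (adjusted p = 0.0142; lost without WT UUO replicate 1 or Myc cKO UUO replicate 3, at 0.0651 to 0.0715). None of the 28 nuclear subunits passed without WT UUO replicate 1, none without Myc cKO UUO replicate 3 and 8 without WT UUO replicate 2, while the median stayed positive at 0.35 with both left out.

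Transcripts made in the mitochondrion itself moved more. Of 13 protein genes tested 9 rose, with a median of 1.52. mt-Nd2, a subunit of complex I, stood at 240.3, 342 and 256 CPM in WT UUO against 713, 876 and 1203 in Myc cKO UUO and rose by 1.74 ± 0.24 (adjusted p = 0.00169). mt-Nd5, of the same complex, went from 448, 558 and 491 to 1266, 1345 and 1964 CPM and rose by 1.61 ± 0.24 (adjusted p = 0.00225). mt-Nd4 went from 248, 354 and 293 to 586, 883 and 1101 CPM and rose by 1.52 ± 0.24 (adjusted p = 0.00268). All Myc cKO UUO libraries lay above all WT UUO libraries for these genes, and mt-Nd2 stayed below the 3037 ± 423 CPM of contralateral kidneys. Among the 9 that rose, mt-Atp6 and mt-Nd3 were counted at low levels, 0.686, 0.923 and 1.01 CPM and 0.166, 0.237 and 0.232 CPM in WT UUO (adjusted p = 0.033, lost without WT UUO replicates 1, 2 and 3 or Myc cKO UUO replicate 3, at 0.0635 to 0.2, and 0.0345, lost without WT UUO replicates 1, 2 and 3 or Myc cKO UUO replicate 3, at 0.0693 to 0.239). Calls in 7 of the 13 genes held without any 1 library. The share of mitochondrial ribosomal RNA given above moved with this list, and its part in the result was not tested. With mitochondrially encoded genes left out of the table before scaling, 2532 genes were called in all.

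Of 26 genes that degrade amino acids, another task of the proximal tubule, 16 rose and 0 fell (median 1.19). Hgd, of tyrosine breakdown, went from 10.03, 28.3 and 22.4 to 64.9, 77.8 and 92.5 CPM and rose by 1.95 ± 0.34 (adjusted p = 0.00436). Kmo, of the tryptophan to kynurenine route, went from 8.00, 13.5 and 10.5 to 21.9, 33.1 and 43.8 CPM and rose by 1.63 ± 0.27 (adjusted p = 0.00308). Pcca, of propionyl-CoA use, and Amt, of glycine cleavage, rose by 0.92 ± 0.15 and 0.75 ± 0.13 (adjusted p = 0.00334 and 0.00454). These 4 calls held without any 1 library. The number of risen genes in this list was 6 to 19 over the 6 omissions (6 without WT UUO replicate 1 or Myc cKO UUO replicate 3) and 19 after GC correction.

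Of 22 nuclear regulators of tubular and mitochondrial genes, 7 rose and 1 fell. The rises numbered 1 without WT UUO replicate 1, 2 without Myc cKO UUO replicate 3, 4 without WT UUO replicate 3, and 0 with WT UUO replicate 1 and Myc cKO UUO replicate 3 both left out; the single fall was lost in 5 of the 6 omissions. Esrrg, an orphan nuclear receptor that drives oxidative genes, went from 30.9, 39.6 and 46.2 to 52.6, 69.7 and 71.5 CPM and rose by 0.73 ± 0.15 (adjusted p = 0.00923), a call held without any 1 library. Ppargc1a, the coactivator of mitochondrial biogenesis, went from 32.5, 33.2 and 51.0 to 53.5, 80.4 and 129 CPM, a rise of 1.17 ± 0.27 (adjusted p = 0.0128) that reached 0.0642 without WT UUO replicate 1 and 0.0644 without Myc cKO UUO replicate 3. Hnf4a, which maintains proximal tubule identity, stood at 67.3, 161 and 103 CPM in WT UUO against 188, 186 and 397 in Myc cKO UUO and rose by 1.22 ± 0.32 (adjusted p = 0.0241; lost without WT UUO replicates 1 and 3 or Myc cKO UUO replicate 3, at 0.0656 to 0.137). Sirt3, a mitochondrial deacetylase, rose by 1.05 ± 0.23 (adjusted p = 0.0104; lost without WT UUO replicate 1, at 0.0542).

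Glycolysis genes showed no common direction. Of 24 genes 1 rose and 3 fell, and the median was -0.02; without WT UUO replicate 1 none fell. Hk2, the inducible hexokinase that traps glucose, stood at 48.7, 26.8 and 25.9 CPM in WT UUO against 16.1, 11.6 and 6.79 in Myc cKO UUO and fell by 1.56 ± 0.35 (adjusted p = 0.012; lost without WT UUO replicate 1 or Myc cKO UUO replicate 3, at 0.0531 to 0.0682). Pkm, the pyruvate kinase gene of proliferating cells, went from 417, 227 and 218 to 100, 115 and 162 CPM and fell by 1.20 ± 0.26 (adjusted p = 0.0104; lost without WT UUO replicate 1, at 0.0593). Slc16a3, which exports lactate, went from 21.5, 7.32 and 5.06 to 3.44, 2.87 and 3.76 CPM and fell by 1.75 ± 0.47 (adjusted p = 0.0263; lost without WT UUO replicate 1 or Myc cKO UUO replicates 2 and 3, at 0.0797 to 0.186). For all 3, WT UUO replicate 1 was the highest library. Ldha, which makes lactate from pyruvate, overlapped between groups, at 247, 197 and 169 CPM in WT UUO against 193, 168 and 212 in Myc cKO UUO (-0.09 ± 0.24, adjusted p = 0.839).

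Genes for ribosome assembly, a textbook class of Myc targets, were modestly lower. Of 25 tested 9 fell and 0 rose, 22 had a negative difference, and the median was -0.27. Bop1, needed to make the large ribosomal subunit, stood at 20.9, 23.2 and 22.3 CPM in WT UUO against 14.3, 11.9 and 12.9 in Myc cKO UUO. The groups were well apart, and Bop1 fell by 0.77 ± 0.09 (adjusted p = 0.00124; 0.00599 after GC correction), to below the 19.9 ± 2.43 CPM of contralateral kidneys. Nop2, an RNA methylase of the nucleolus, went from 22.5, 24.7 and 23.7 to 16.6, 16.2 and 14.3 CPM and fell by 0.59 ± 0.10 (adjusted p = 0.00414). Noc2l, a ribosome assembly factor, and Polr1a, the large subunit of RNA polymerase I, fell by 0.51 ± 0.09 and 0.34 ± 0.07 (adjusted p = 0.00535 and 0.00909). Calls of 6 members, those 4 among them, held without any 1 library, and 6 members fell after GC correction, 14 without Myc cKO UUO replicate 1 and 4 with WT UUO replicate 1 and Myc cKO UUO replicate 3 both left out. The abundant nucleolar gene Npm1, singled out here as a familiar Myc target, stood at 268, 256 and 249 CPM in WT UUO against 250.3, 249 and 258 in Myc cKO UUO (-0.03 ± 0.07, adjusted p = 0.844).

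Nucleotide synthesis showed falls in 7 of 21 genes and a rise in 1, with a median of -0.16. Cad, the enzyme that starts pyrimidine synthesis, stood at 27.1, 36.1 and 31.1 CPM in WT UUO against 19.1, 16.9 and 11.5 in Myc cKO UUO. It fell by 0.99 ± 0.17 (adjusted p = 0.00416; 0.0152 after GC correction), to the level of contralateral kidneys at 15.9 ± 1.39 CPM. The purine enzyme gene Atic went from 37.4, 40.3 and 38.1 to 29.4, 25.0 and 22.5 CPM and fell by 0.59 ± 0.10 (adjusted p = 0.00315). Gart, of the same pathway, went from 26.4, 31.7 and 28.7 to 20.7, 19.3 and 19.8 CPM and fell by 0.54 ± 0.09 (adjusted p = 0.00381). Impdh1, of guanine nucleotide synthesis, fell by 0.96 ± 0.15 (adjusted p = 0.0028). These 4 calls held without any 1 library. The single rise was Ppat, the first step of purine synthesis, which went from 26.9, 35.8 and 33.0 to 39.8, 42.8 and 53.4 CPM and rose by 0.51 ± 0.12 (adjusted p = 0.0161; 0.0741 without WT UUO replicate 1 and 0.0813 without Myc cKO UUO replicate 3). Odc1, of polyamine synthesis and another familiar Myc target singled out here, overlapped between groups, at 94.5, 94.4 and 77.8 CPM in WT UUO against 140.0, 89.6 and 114 in Myc cKO UUO (0.36 ± 0.41, adjusted p = 0.608).

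The promoters of both classes and of the Myc network were searched for the letters CACGTG, which read the same on both strands, from 250 bases before to 50 after each RefSeq start (GRCm38.p6, the build of the files). A gene counted if any of its promoters held the letters. They occurred in 6 of 20 ribosome assembly genes with a promoter in the table, 5 of 19 nucleotide genes and 5 of 13 Myc network genes. Among all tested genes with a promoter the count was 1337 of 12636 (10.6%). By single promoters rather than genes, tested or not, it was 2349 of 32851 (7.15%). Of the genes called in these lists they occurred in Nop2, Mybbp1a, Atic, Impdh2 and Mlxipl. The match of Mybbp1a, a nucleolar Myb-binding protein gene that fell by 0.40 ± 0.09 (adjusted p = 0.0117), lies past its start and is not shown. The other 4 stretches are shown because their genes passed the test, with the matched letters in capitals and up to 30 bases of context on each side, ending before the start. They lie at chr6:125131793-125131858 (Nop2), chr1:71557119-71557155 (Atic), chr9:108560296-108560361 (Impdh2) and chr5:135089762-135089827 (Mlxipl), all on the plus strand.
Nop2: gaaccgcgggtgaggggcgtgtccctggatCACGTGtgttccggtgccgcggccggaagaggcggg
Atic: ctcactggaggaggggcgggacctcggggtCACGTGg
Impdh2: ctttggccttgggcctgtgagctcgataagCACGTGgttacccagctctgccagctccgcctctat
Mlxipl: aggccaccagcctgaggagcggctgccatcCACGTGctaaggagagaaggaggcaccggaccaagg
Nop2, Atic and Impdh2 fell, and Mlxipl rose. Impdh2, of guanine nucleotide synthesis, went from 39.4, 40.1 and 30.5 to 28.2, 25.7 and 21.7 CPM (difference -0.54 ± 0.14, adjusted p = 0.0238, lost without WT UUO replicates 1 and 2 or Myc cKO UUO replicates 2 and 3, at 0.0633 to 0.112). Mlxipl, a glucose-sensing factor of the extended Myc network, went from 18.4, 34.8 and 20.8 to 53.8, 37.9 and 68.8 CPM (difference 1.12 ± 0.29, adjusted p = 0.0227, lost without WT UUO replicates 1 and 3 or Myc cKO UUO replicate 3, at 0.0694 to 0.111) and was the single called gene of 14 network genes tested. Among all tested genes with a promoter the letters occurred in 10.6%, and in 12.4% of those that rose and 11.0% of those that fell. A match describes the letters and is not a measured binding site.

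Matrix genes were lower in Myc cKO UUO. Of 16 collagens tested 13 fell and 0 rose (median -1.47), and of 32 matrix glycoproteins and remodeling enzymes 19 fell and 0 rose (-1.24). Col1a1, a chain of the main fibrillar collagen, stood at 1429, 1297 and 687 CPM in WT UUO against 569, 249 and 97.5 in Myc cKO UUO. No library overlapped, but the Myc cKO UUO kidneys spread widely, and the fall of 1.90 ± 0.51 (adjusted p = 0.0286) was lost without WT UUO replicates 1 and 2 or Myc cKO UUO replicates 2 and 3, at 0.0774 to 0.106. Its adjusted p was 0.0555 after GC correction. Col3a1, another main fibrillar chain, went from 3222, 2603 and 1604 to 1297, 724 and 226 CPM and fell by 1.73 ± 0.48 (adjusted p = 0.0313; lost without WT UUO replicates 1 and 2 or Myc cKO UUO replicates 2 and 3, at 0.0711 to 0.121). Fn1, which encodes fibronectin, went from 1123, 1024 and 728 to 658, 506 and 265 CPM and fell by 1.01 ± 0.30 (adjusted p = 0.0406; 0.0825 after GC correction; lost without WT UUO replicates 1 and 2 or Myc cKO UUO replicates 2 and 3, at 0.084 to 0.151). All 3 stayed above contralateral kidneys, where Col1a1 stood at 29.9 ± 9.80 CPM.

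Other matrix genes spread less among the Myc cKO UUO kidneys, and their calls held without any 1 library. Col6a1, a chain of beaded-filament collagen, went from 216, 169.5 and 137 to 77.3, 68.7 and 51.6 CPM and fell by 1.40 ± 0.22 (adjusted p = 0.00255). Its partner chain Col6a2 went from 151, 107 and 93.0 to 54.6, 46.8 and 33.3 CPM and fell by 1.38 ± 0.22 (adjusted p = 0.00276). Col4a2, of basement membranes, went from 853, 912 and 712 to 479, 455 and 413 CPM and fell by 0.88 ± 0.13 (adjusted p = 0.00225), and Col5a3 fell by 2.36 ± 0.42 (adjusted p = 0.00446). Of the lysyl oxidases that cross-link collagen, Loxl1 went from 58.4, 75.2 and 47.4 to 28.6, 28.0 and 23.2 CPM and fell by 1.18 ± 0.17 (adjusted p = 0.00177), Loxl2 fell by 1.23 ± 0.24 (adjusted p = 0.00649) and Loxl3 fell by 1.33 ± 0.22 (adjusted p = 0.00299). Mmp14, a membrane collagenase, went from 122, 134 and 102 to 62.9, 46.3 and 27.5 CPM and fell by 1.39 ± 0.27 (adjusted p = 0.00735). The number of fallen collagens was 9 to 13 over the 6 omissions, 5 with WT UUO replicate 1 and Myc cKO UUO replicate 3 both left out, and 12 after GC correction; for the other matrix genes it was 7 to 19, 2 and 15. The latter count was 7 without WT UUO replicate 1, 9 without Myc cKO UUO replicate 3, 10 without Myc cKO UUO replicate 2 and 11 without WT UUO replicate 2.

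Markers of the cells that make matrix fell in part. Of 19 myofibroblast and pericyte genes 7 fell (median -0.91), 4 after GC correction. The count was 4 without WT UUO replicate 1 or 2 or Myc cKO UUO replicate 2 or 3, 14 without Myc cKO UUO replicate 1, and 3 with WT UUO replicate 1 and Myc cKO UUO replicate 3 both left out. Fap, a surface protease of activated fibroblasts, stood at 10.3, 14.0 and 8.20 CPM in WT UUO against 3.97, 2.44 and 1.52 in Myc cKO UUO and fell by 2.03 ± 0.32 (adjusted p = 0.00264). Pdgfrb, the growth factor receptor of pericytes and fibroblasts, went from 175, 198 and 199 to 127, 118 and 79.2 CPM and fell by 0.82 ± 0.15 (adjusted p = 0.0054). Notch3, of pericytes, fell by 0.53 ± 0.11 (adjusted p = 0.00748; 0.115 after GC correction). Acta2, the smooth muscle actin that defines myofibroblasts, stood at 239, 252 and 89.4 CPM in WT UUO against 160.2, 42.5 and 30.9 in Myc cKO UUO, overlapping groups (-1.31 ± 0.50, adjusted p = 0.0995).

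In TGF-beta signaling, the main profibrotic pathway, 7 of 21 genes fell and 1 rose, against 2 and 1 after GC correction. Falls numbered 1 without WT UUO replicate 1, 2 without Myc cKO UUO replicate 2 or 3, 3 without WT UUO replicate 3, 4 without WT UUO replicate 2, and 1 with WT UUO replicate 1 and Myc cKO UUO replicate 3 both left out. The ligand gene Tgfb1 went from 17.7, 20.6 and 23.1 to 13.0, 12.9 and 7.24 CPM and fell by 0.89 ± 0.19 (adjusted p = 0.00998). Id2, which restrains differentiation and is induced by bone morphogenetic proteins, was the gene that rose, from 63.2, 65.0 and 61.2 to 93.6, 125 and 131 CPM (0.88 ± 0.17, adjusted p = 0.00599). Of 10 transcription factors of mesenchymal transition 4 fell (0 without WT UUO replicate 1, 1 without WT UUO replicate 2 or Myc cKO UUO replicate 3 and 2 without Myc cKO UUO replicate 2), among them Zeb1 by 0.49 ± 0.11 (adjusted p = 0.0134; lost without WT UUO replicates 1 and 2, at 0.0551 to 0.0675) and Prrx1 by 1.16 ± 0.30 (adjusted p = 0.0236; lost without WT UUO replicates 1 and 2 or Myc cKO UUO replicates 2 and 3, at 0.0636 to 0.0906). Snai1 stood at 3.20, 3.44 and 2.40 CPM in WT UUO against 1.57, 1.92 and 0.478 in Myc cKO UUO (-1.19 ± 0.38, adjusted p = 0.0554). Twist1 stood at 2.13, 4.49 and 1.14 CPM in WT UUO against 0.971, 1.22 and 0.851 in Myc cKO UUO (-1.35 ± 0.46, adjusted p = 0.0703), where WT UUO replicate 3 carried a floxed Twist allele pair without Cre.

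**Figure D4:**
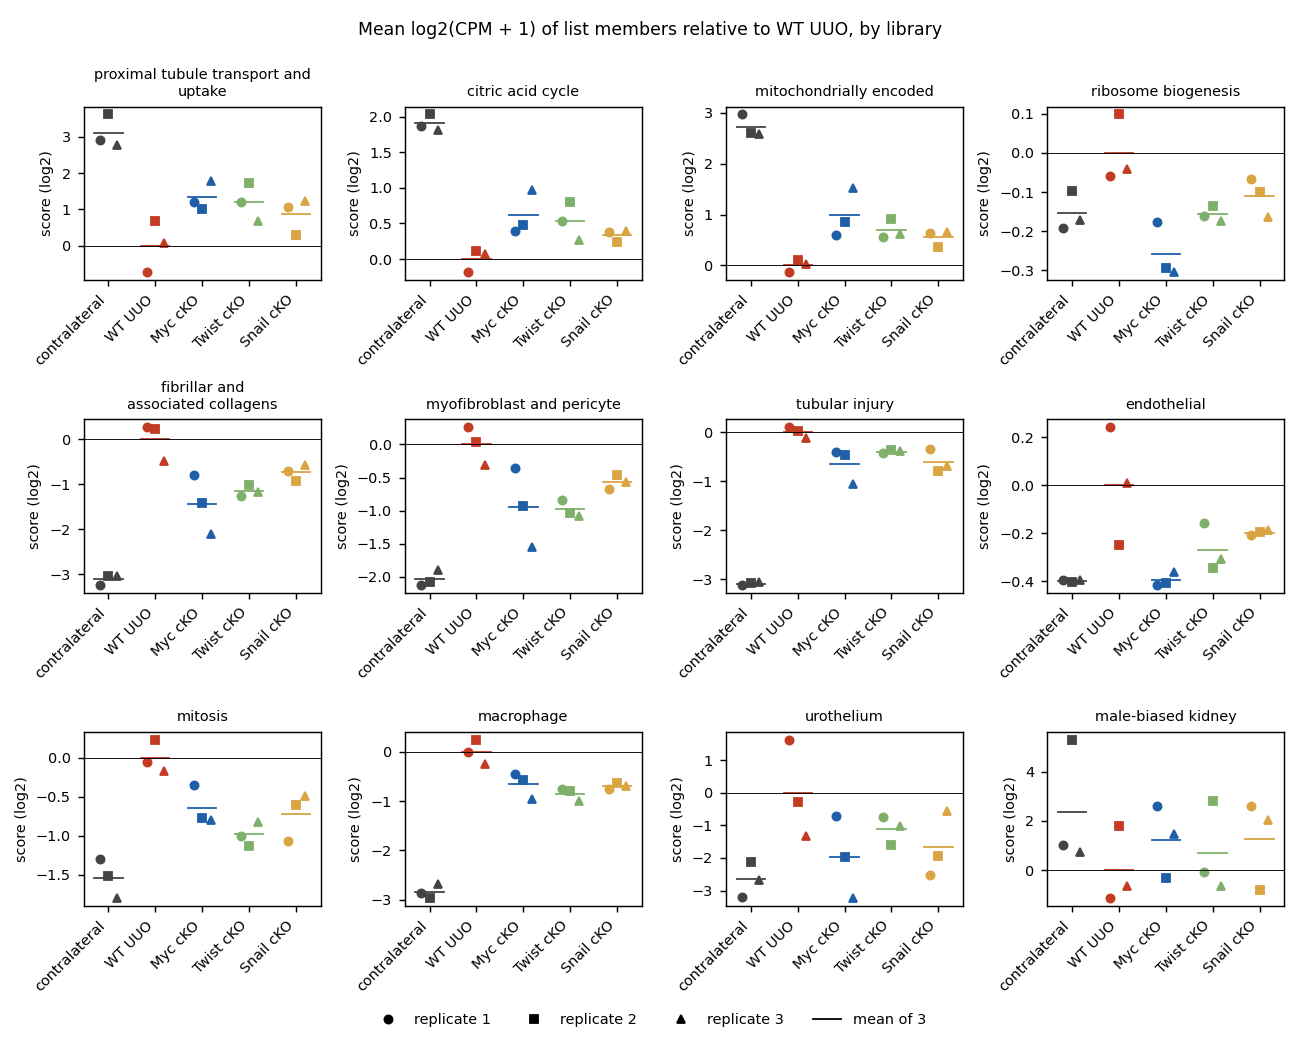
Mean log2(CPM + 1) of the tested members of 12 gene lists in each library, relative to the WT UUO mean at 0; symbols are replicates and lines the means of 3. Myc cKO UUO scores for proximal tubule transport are 1.21, 0.997 and 1.78 and for collagens -0.79, -1.41 and -2.11, between the WT UUO mean and every contralateral kidney, with replicate 3 nearest the contralateral level.

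Myc cKO UUO replicate 3 stood farthest from WT UUO in both the matrix and the transport score. The collagen score relative to WT UUO was -0.79, -1.41 and -2.11 in Myc cKO UUO replicates 1 to 3, and the proximal tubule transport score was 1.21, 0.997 and 1.78. WT UUO scores for transport were -0.73, 0.67 and 0.06, so that replicate 2 of WT UUO came close to replicate 2 of Myc cKO UUO. Uroplakin and keratin genes of the urothelium, the lining of the renal pelvis, scored 1.62, -0.30 and -1.32 in WT UUO against -0.71, -1.97 and -3.22 in Myc cKO UUO. Of 12 tested 12 were lower in Myc cKO UUO and 0 passed the test of edgeR, with 6 at an unadjusted p under 0.05 and 3 called by DESeq2. The median of -2.57 became -0.54 without WT UUO replicate 1 and Myc cKO UUO replicate 3. Fat cell genes scored 1.05, 0.52 and -1.58 in WT UUO against 0.74, -1.33 and 1.07 in Myc cKO UUO, overlapping between groups. The part of these other tissues in the results above was not tested.

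Tubular injury genes fell in part, without the standard markers. Of 28 tested 10 fell and 0 rose (median -0.68), and 4 fell after GC correction. The number fallen was 4 without WT UUO replicate 1 or Myc cKO UUO replicate 3, 5 without Myc cKO UUO replicate 2, and 2 with WT UUO replicate 1 and Myc cKO UUO replicate 3 both left out. Vim, the filament protein of dedifferentiated tubules and of fibroblasts, went from 322, 318 and 245 to 154, 112 and 54.3 CPM and fell by 1.47 ± 0.29 (adjusted p = 0.0071). Plaur, the urokinase receptor, went from 11.8, 11.4 and 9.79 to 6.70, 5.64 and 5.46 CPM and fell by 0.89 ± 0.13 (adjusted p = 0.00186). Sox4, a developmental factor of injured tubules, and Cldn4, a tight junction protein, fell by 0.88 ± 0.18 and 1.13 ± 0.20 (adjusted p = 0.00735 and 0.00433). These 4 calls held without any 1 library. Havcr1, which encodes kidney injury molecule KIM-1, stood at 368, 507 and 374 CPM in WT UUO against 525, 142 and 350.3 in Myc cKO UUO (-0.30 ± 0.99, adjusted p = 0.877). Lcn2, the injury marker NGAL, stood at 215, 155 and 274 CPM in WT UUO against 113, 154 and 192 in Myc cKO UUO (-0.48 ± 0.23, adjusted p = 0.19). Both overlapped between groups, and the standard error of Havcr1 leaves a change in either direction unresolved.

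Genes of later nephron segments were mostly higher, with few calls. In the thick ascending limb and distal tubule 2 of 20 genes rose and 19 had a positive difference (median 0.70). In the collecting duct 1 of 16 rose and 12 had a positive difference (median 0.57). Of all 21050 genes 5.31% rose, a share near that of the collecting duct list, and 10550 had a positive difference. Cldn10, a claudin of the thick ascending limb and proximal tubule, went from 15.2, 23.5 and 20.8 to 45.5, 33.1 and 48.6 CPM and rose by 1.10 ± 0.22 (adjusted p = 0.00778). Aqp2, the water channel of the collecting duct, stood at 15.8, 4.37 and 7.70 CPM in WT UUO against 7.60, 46.6 and 61.9 in Myc cKO UUO, where replicate 1 lay within WT UUO (2.06 ± 0.63, adjusted p = 0.0472; lost without WT UUO replicates 1, 2 and 3 or Myc cKO UUO replicates 2 and 3, at 0.0549 to 0.204). In the first list the number risen was 1 without WT UUO replicate 1 or 2 or Myc cKO UUO replicate 2 or 3, 4 without WT UUO replicate 3, 12 without Myc cKO UUO replicate 1, and in the collecting duct 0 without WT UUO replicate 1 or 2 or Myc cKO UUO replicate 2 or 3 and 6 without Myc cKO UUO replicate 1.

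Cell cycle genes were lower with few calls. Of 22 mitotic genes 20 had groups that did not overlap, against 31.8% of all genes. Of the 22, 2 fell (median -0.73), while 6.91% of all genes fell. The number fallen was 1 without WT UUO replicate 1 or 2 or Myc cKO UUO replicate 2 or 3 and 6 without Myc cKO UUO replicate 1. Plk1, a mitotic kinase, went from 3.996, 5.39 and 4.62 to 1.83, 1.62 and 2.21 CPM and fell by 1.31 ± 0.28 (adjusted p = 0.00987). In DNA replication 6 of 25 fell, 3 after GC correction. That number was 2 without WT UUO replicate 1 or 2 or Myc cKO UUO replicate 2 or 3, and 0 with WT UUO replicate 1 and Myc cKO UUO replicate 3 both left out. Mcm2, a subunit of the replicative helicase, went from 21.01, 22.1 and 20.5 to 15.3, 12.0 and 11.5 CPM and fell by 0.71 ± 0.13 (adjusted p = 0.00454). Mcm3, of the same helicase, went from 21.1, 21.7 and 15.2 to 11.3, 9.38 and 8.80 CPM and fell by 0.97 ± 0.20 (adjusted p = 0.00796). Of 15 cell cycle inhibitors and senescence genes 3 fell. Cdkn2b, which encodes p15, went from 8.90, 5.35 and 4.498 to 2.69, 1.58 and 1.54 CPM and fell by 1.69 ± 0.29 (adjusted p = 0.00377), and Trp53, which encodes p53, fell by 0.68 ± 0.13 (adjusted p = 0.00525).

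The title of the series links tubular metabolism to vascular integrity and hypoxia, so the same comparison was read for vessels. Of 22 endothelial genes 11 fell (median -0.51), 5 after GC correction and 3 to 11 over the 6 omissions (3 without WT UUO replicate 1, 6 without Myc cKO UUO replicate 3 and 7 without WT UUO replicate 3 or Myc cKO UUO replicate 2). Endothelial scores relative to the WT UUO mean were 0.24, -0.25 and 0.01 in WT UUO against -0.42, -0.41 and -0.36 in Myc cKO UUO. Contralateral kidneys scored -0.40, -0.40 and -0.40 and healthy kidneys -0.22, -0.24 and -0.20. The Myc cKO UUO scores thus lay near the contralateral level. Cdh5, the endothelial cadherin, stood at 109.7, 70.5 and 74.4 CPM in WT UUO against 44.8, 44.96 and 41.6 in Myc cKO UUO. It fell by 0.95 ± 0.13 (adjusted p = 0.00177), and still did with WT UUO replicate 1 and Myc cKO UUO replicate 3 both left out (adjusted p = 0.0163). Eng, a TGF-beta coreceptor of vessels, went from 83.5, 86.2 and 77.1 to 58.7, 55.8 and 57.9 CPM and fell by 0.52 ± 0.08 (adjusted p = 0.00232). Sox18, an endothelial transcription factor, went from 8.54, 6.48 and 8.17 to 4.04, 3.95 and 4.46 CPM and fell by 0.90 ± 0.16 (adjusted p = 0.00454). Pecam1, a junction protein of all endothelium, went from 119.7, 78.6 and 82.1 to 71.5, 70.4 and 67.9 CPM, a fall of 0.42 ± 0.13 (adjusted p = 0.045; 0.0756 after GC correction; lost without WT UUO replicate 1 or Myc cKO UUO replicates 1, 2 and 3, at 0.0657 to 0.272).

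Genes induced by hypoxia showed no common direction. Of 27 tested 2 rose and 2 fell, with a median of -0.01. Rises numbered 1 without WT UUO replicate 1 or 3 or Myc cKO UUO replicate 3, 4 without Myc cKO UUO replicate 1, and falls 0 without WT UUO replicate 1 or Myc cKO UUO replicate 2 and 1 without Myc cKO UUO replicate 1 or 3. Car12, a carbonic anhydrase, rose from 45.9, 51.7 and 68.4 to 81.5, 139 and 140.2 CPM (1.12 ± 0.23, adjusted p = 0.0076). Hif1a, the oxygen-regulated factor, stood at 220.5, 114 and 125 CPM in WT UUO, highest in replicate 1, and 107, 130.2 and 139 in Myc cKO UUO (-0.29 ± 0.19, adjusted p = 0.346). Vegfa, the vessel growth factor that tubules secrete, stood at 82.7, 52.6 and 63.6 CPM in WT UUO against 64.3, 70.6 and 92.2 in Myc cKO UUO (0.19 ± 0.16, adjusted p = 0.474). Apln, a vessel-active peptide gene made by sprouting endothelium, went from 33.0, 19.6 and 10.5 to 7.26, 2.91 and 6.21 CPM and fell by 1.95 ± 0.41 (adjusted p = 0.00982; lost without WT UUO replicate 1, at 0.0549).

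Immune genes were largely unresolved. Of 21 macrophage genes 4 fell (median -0.60), Arg1 by the most; the count was 1 without WT UUO replicate 1 or 2 or Myc cKO UUO replicate 2 or 3. C1qa, a complement subunit made by resident macrophages, went from 119, 149 and 96.4 to 80.5, 64.8 and 59.2 CPM and fell by 0.83 ± 0.21 (adjusted p = 0.0216; lost without WT UUO replicates 1 and 2 or Myc cKO UUO replicates 2 and 3, at 0.0675 to 0.0985). Csf1r, the receptor for the macrophage growth factor, went from 143, 158 and 112 to 102, 94.0 and 84.6 CPM and fell by 0.56 ± 0.16 (adjusted p = 0.0349; lost without WT UUO replicates 1 and 2 or Myc cKO UUO replicates 2 and 3, at 0.089 to 0.15). Both calls were also lost after GC correction (0.101 and 0.119). Among neutrophil genes 1 of 9 fell, Csf3r by 1.11 ± 0.29 (adjusted p = 0.024; lost without WT UUO replicates 1 and 2 or Myc cKO UUO replicates 2 and 3, at 0.0618 to 0.102), and among chemokines and cytokines 1 of 24, Il11, a profibrotic cytokine, by 1.67 ± 0.42 (adjusted p = 0.0203; lost without WT UUO replicates 1 and 3 or Myc cKO UUO replicate 3, at 0.0518 to 0.075). Of the 9 neutrophil genes 5 had a positive difference (median 0.28, highest 3.74), and 6.91% of all genes fell. Neutrophil scores relative to the WT UUO mean were 0.24, -0.26 and 0.02 in WT UUO against -0.69, -0.54 and 0.94 in Myc cKO UUO. Replicate 3 of Myc cKO UUO thus stood above every WT UUO library, and replicates 1 and 2 below. Of 20 T and NK cell genes 0 passed the test of edgeR, 0 had an unadjusted p under 0.05 and DESeq2 called 0. The macrophage marker Adgre1 and the neutrophil marker Ly6g were not among the genes tested.

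A few neighboring genes on chromosome 7 were nearly absent from the Myc cKO UUO kidneys. Trim12a (104299894 to 104315466, mm10), of a family of antiviral proteins, had 886, 753 and 1542 counts in WT UUO against 3, 2 and 0 in Myc cKO UUO, or 10.5, 9.40 and 18.8 and 0.0416, 0.0246 and 0 CPM. Trim5 (104263386 to 104288094) stood at 2.62, 2.36 and 5.35 CPM in WT UUO against 0.0832, 0.0737 and 0.104 in Myc cKO UUO. Trim30d (104470014 to 104507849) went from 6.75, 8.12 and 9.13 to 1.55, 1.17 and 0.642 CPM, and the interferon-inducible GTPase gene Gvin1 (106156556 to 106215326) from 2.74, 4.48 and 4.56 to 0.0277, 0.0982 and 0.0149 CPM. Adjusted p was 0.00454, 0.00241, 0.00315 and 0.00467, held without any 1 library and after GC correction. Of 32 genes tested in the stretch around them (104218793 to 106424469), chosen after its values were seen, 8 were lower and 0 higher. Of all genes 6.91% were lower and 5.31% higher. The 8 include Trim12a, Trim5, Trim30d and Gvin1, around which the stretch was drawn, so the count is no separate evidence. Gm1966 on chromosome 7, a Gvin1-like gene singled out after its values were seen, went from 17.4, 15.5 and 31.3 to 0.749, 0.553 and 0.104 CPM. It was the single gene called when GC correction was combined with leaving out WT UUO replicate 1 and Myc cKO UUO replicate 3. These families hold closely similar copies, and how reads matching several copies were counted is not stated, so the levels of single members are uncertain.

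Low levels of these genes were not limited to Myc cKO UUO. In healthy kidneys, which carried no Myc deletion and had the strain labels of WT UUO, Trim12a stood at 4.35, 0.0205 and 0.0155 CPM and Gvin1 at 0.814, 0.0205 and 0, so that 2 of 3 healthy libraries were as low as Myc cKO UUO. Contralateral kidneys had 5.48, 4.70 and 12.1 CPM of Trim12a, Twist cKO UUO 8.45, 15.7 and 8.56 and Snail cKO UUO 16.1, 19.8 and 17.6. The labels give different strain mixtures to WT UUO and Myc cKO UUO, while Snail cKO UUO had the mixture of Myc cKO UUO. Line and genotype cannot be told apart for these genes, and the part of strain was not tested.

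**Figure D5:**
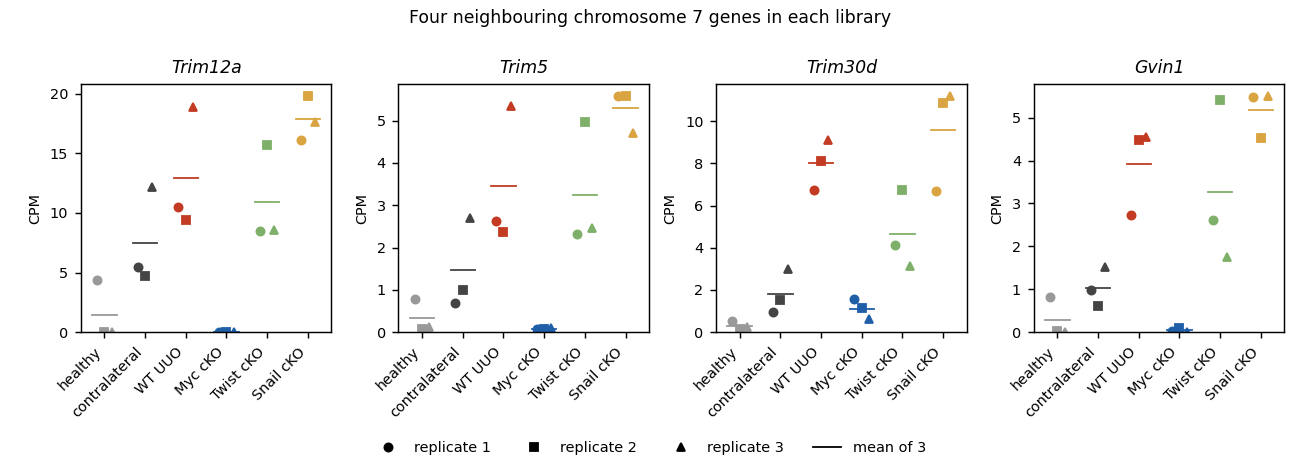
Levels (CPM, linear axis) of Trim12a, Trim5, Trim30d and Gvin1 in each library by group; symbols are replicates and lines the means of 3. All 3 Myc cKO UUO libraries and healthy replicates 2 and 3 lie near 0 for Trim12a, Trim5 and Gvin1, while every WT UUO, Twist cKO UUO and Snail cKO UUO library lies above them (9.40 CPM or more for Trim12a in WT UUO).

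To see where the Myc deletion differed from deletions aimed at the endothelium, Myc cKO UUO was set against the average of Twist cKO UUO and Snail cKO UUO, a contrast from which WT UUO cancels. Of 21050 genes 1064 differed (5.05%), 239 higher (1.14%) and 825 lower (3.92%), and the groups did not overlap in 11.9% (4.5% called and not overlapping). Median GC content was 43.2% in the genes that were higher and 57.3% in those that were lower, against 49.4% in all. Both sides of this contrast differed in GC trend: the Spearman correlation described above was 0.44, 0.23 and 0.24 in Twist cKO UUO and 0.34, -0.03 and 0.41 in Snail cKO UUO, opposite in sign to Myc cKO UUO in 5 of these 6 libraries. Corrected for transcript GC content, 67 genes differed (0.318%), 28 higher (0.133%) and 39 lower (0.185%). Of these 67, 60 were among the 1064.

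In the proximal tubule, metabolic and matrix lists few genes differed between the Myc and the endothelial knockouts. Transport scores, on the scale used above, were 1.19, 1.74 and 0.67 in Twist cKO UUO, with 1.08, 0.29 and 1.24 in Snail cKO UUO, overlapping the 1.21, 0.997 and 1.78 of Myc cKO UUO. Collagen scores were -1.26, -1.02 and -1.18 and -0.71, -0.93 and -0.57, against -0.79, -1.41 and -2.11. In transport 2 of 33 genes were higher in Myc cKO UUO (median 0.24), in the citric acid cycle 0 of 22 (0.22), and of the collagens 2 of 16 were lower (-0.49). Of all genes 1.14% were higher and 3.92% lower, so the transport and collagen counts, though small, exceeded those shares. After GC correction no gene of these 3 lists passed. Cubn stood at 365 ± 38.8 CPM in Twist cKO UUO, with 267 ± 35.0 in Snail cKO UUO, against 399 ± 153 in Myc cKO UUO, a difference of 0.35 ± 0.20 (adjusted p = 0.365). Col1a1 stood at 396 ± 96.6, 539.9 ± 204 and 305 ± 241 CPM in that order, a difference of -0.60 ± 0.44 (adjusted p = 0.493). A p that misses the threshold does not show that the knockouts act alike.

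Of the ribosome assembly genes, 7 of 25 were lower in Myc cKO UUO than in the endothelial knockouts (median -0.11). Of the nucleotide genes 4 of 21 were lower (median -0.025), against 3.92% of all genes. None of these passed after GC correction, and 10 genes of each list had a positive difference before it. Ribosome assembly scores were -0.18, -0.29 and -0.30 in Myc cKO UUO. They were -0.16, -0.14 and -0.17 in Twist cKO UUO, with -0.07, -0.10 and -0.16 in Snail cKO UUO. Nucleotide scores overlapped, at -0.14, -0.20 and -0.28, against -0.19, -0.10 and -0.18 and -0.17, -0.13 and -0.10 in that order. Bop1 stood at 18.7, 19.4 and 19.1 CPM in Twist cKO UUO, with 19.7, 18.6 and 18.7 in Snail cKO UUO, all above the 14.3, 11.9 and 12.9 of Myc cKO UUO. The difference was -0.55 ± 0.08 (adjusted p = 0.00329), with an adjusted p of 0.186 after correction; 58.3% of its transcript is G or C. Cad and Gart differed by -0.73 ± 0.15 and -0.45 ± 0.08 (adjusted p = 0.0151 and 0.00685; 0.216 and 0.0828 after correction).

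Genes that differed from the endothelial knockouts with and without GC correction included the chromosome 7 genes and Lama3, Il3ra and Atp9a. Lama3, a laminin chain of epithelial basement membranes, stood at 24.1, 9.85 and 10.1 CPM in Myc cKO UUO, 50.6, 79.8 and 57.0 in Twist cKO UUO, with 64.9, 42.6 and 69.7 in Snail cKO UUO, a difference of -2.05 ± 0.39 (adjusted p = 0.00893; 0.0475 corrected). It was lower than WT UUO as well, at 74.2, 62.1 and 49.1 CPM there, by 2.07. Il3ra, the interleukin 3 receptor subunit, stood at 1.11, 0.896 and 0.582 CPM against 3.04, 2.49 and 3.16 and 4.40, 3.99 and 3.67, a difference of -1.98 ± 0.28 (adjusted p = 0.00242; 0.0178 corrected). Atp9a, a lipid flippase gene, stood at 31.4, 26.7 and 31.8 CPM against 65.7, 62.5 and 63.2 and 83.0, 74.2 and 81.9, a difference of -1.25 ± 0.15 (adjusted p = 0.000951; 0.00693 corrected). All 3 were lower in each Myc cKO UUO library than in any other obstructed kidney.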

How the data were processed

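Total RNA from a piece of each kidney was sequenced as stranded whole-transcriptome libraries with paired reads of 75 bases, per the labels' protocols. The deposited table holds read counts per gene, which the authors made with HTSeq on mm10, with bcl2fastq 1.8.4 and DESeq2 also named, per the submitters' processing notes; no source used here names the aligner or the annotation. Of 31787 genes in the table, 958 had no count. Another 6 columns match no sample and were not used.

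All 18 libraries entered one quasi-likelihood fit in edgeR 4.0.16 (R 4.3.3; robust, TMM scaling, 6 group means, 12 residual degrees of freedom). The filter filterByExpr kept 21050 genes, and p-values were adjusted by Benjamini-Hochberg over all of them with a threshold of 0.05. The fit was also run on simulated counts, made after the main fit with means and dispersions from these data. Its result there is not reported here. Values after ± are standard errors for log2 differences and SD (n = 3) for CPM. Exact permutation of 3 against 3 libraries cannot give a two-sided p under 0.1, so no such test was used. Alternatives were DESeq2 1.42.0, limma voom (limma 3.58.1), other scalings and filters, only the groups compared, sex and Cre covariates, at least 2-fold change and leaving out libraries. Correction for transcript GC content, alone, with 2 libraries left out and with sex, was added after seeing the data.

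Genes were named by a rule: Myc, Ggt1 and 20 textbook kidney genes, the 12 largest rises and 12 largest falls among called genes with a known symbol, a mean log2 CPM from 1 up and groups that do not overlap, and the 4 (or fewer) genes of lowest p in each list. Not all of these are described, and some are not reported here. Outside the rule, and chosen after their values were seen, are Impdh2, Npm1, Ppat, Mybbp1a, Gm1966, Gpc1, Serpina1f, Gm26917, mt-Atp6 and mt-Nd3. The members and lists were chosen with earlier results of these data known. Promoters came from RefSeq (GRCm38.p6, the same build as mm10). Gene coordinates and transcript GC content came from GENCODE M21, on mm10.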

Additional observations from a re-analysis of the deposited data

Results flagged for a closer look

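For 35 of the genes named in the text, the difference from WT UUO was unlike that of the average endothelial knockout. The test was that of Myc cKO UUO against Twist cKO UUO and Snail cKO UUO, and Trim12c is not in this count. After correction for transcript GC content 11 of the 35 still passed and 24 did not. Values are log2 differences, negative where Myc cKO UUO was lower.

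Of the 11 that passed with and without the correction, 5 lie on chromosome 7: Trim12a (-9.16), Trim5 (-5.55), Gvin1 (-6.34), Gm1966 (-5.66) and Trim30d (-2.57). Trim12c, of the same gene family as Trim12a, went the other way. Before correction it was among the 12 largest rises of Myc cKO UUO against the endothelial knockouts. The size for Trim12a is a fitted value that depends on the prior count, since Myc cKO UUO had 3, 2 and 0 counts. The noncoding RNA gene Gm26917 differed by -2.15. Lama3 differed by -2.05, Il3ra by -1.98 and Atp9a by -1.25. Acp1, a phosphatase gene, differed by 1.24 and Serinc3, a membrane protein gene, by 0.80. Both were near WT UUO, at 0.13 ± 0.22 for Acp1 (adjusted p = 0.751) and 0.15 ± 0.15 for Serinc3 (adjusted p = 0.551).

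The other 24 did not pass after the correction. Of the ribosome assembly genes, Bop1 differed by -0.55, Nop2 by -0.40, Noc2l by -0.31, Polr1a by -0.31 and Mybbp1a by -0.32. Among nucleotide genes, Cad differed by -0.73, Impdh1 by -0.61, Atic by -0.36 and Gart by -0.45. Matrix, pericyte and vessel genes in this set were Col4a2 (-0.52), Loxl1 (-0.62), Pdgfrb (-0.51), Notch3 (-0.58) and Eng (-0.54). Cldn4 differed by -0.83, Mcm2 by -0.45, Trp53 by -0.58 and Pck2 by -0.47. Higher in Myc cKO UUO were Pvt1 (1.12), Slc4a4 (0.66), Slc13a1 (0.89), mt-Nd2 (0.81), Igfbp1 (2.43) and Gpx3 (1.0). The part of the GC pattern in these differences was not tested beyond the corrected fit.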

How the results depend on the processing

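No paired analysis was possible because replicate numbers were given in accession order only and the labels tie no library of one group to a library of another. For Myc cKO UUO against WT UUO, the 2572 calls became 5 with only the groups compared, 287 with WT UUO replicate 1 and Myc cKO UUO replicate 3 both left out, 1 with GC correction added to that, and 783 at a change of at least 2-fold. Leaving out 1 library gave 797 (without WT UUO replicate 1) to 3025 (without Myc cKO UUO replicate 1). Scaling by library totals only shifted the median of all genes to -0.26, and 13.9% of calls were then higher against 43.4%; GC correction made it 57.0%, and the GC and sex correction together 59.7%. Without Myc cKO UUO replicate 2 the share was 53.7%, without Myc cKO UUO replicate 3 it was 31.9%, and with WT UUO replicate 1 and Myc cKO UUO replicate 3 both left out 20.6%. For Myc cKO UUO against the endothelial knockouts, the 1064 calls became 2046 by DESeq2, 67 with GC correction, 98 with GC correction and sex, 658 with WT UUO replicate 1 and Myc cKO UUO replicate 3 both left out, 18 with both those changes, and 109 at a change of at least 2-fold. Leaving out 1 library gave 455 (without Myc cKO UUO replicate 2) to 998; without Snail cKO UUO replicate 1 it was 513. In that comparison 22.5% of calls were higher, 6.60% by library totals only and 41.8% with GC correction.

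Of 116 genes in the text that differed from WT UUO, 113 were also called with sex as a covariate, all but 10 with GC correction, 74 in each of the 6 omissions of 1 library and 33 with WT UUO replicate 1 and Myc cKO UUO replicate 3 both left out. Reversals were of genes not called in that comparison, apart from Noc2l. Over the omissions of 1 library, Ldha ran from -0.198 to 0.081 (without WT UUO replicate 1; 0.0072 without Myc cKO UUO replicate 2), Havcr1 from -0.759 to 0.089 (without Myc cKO UUO replicate 2), Hif1a from -0.441 to 0.086 and Npm1 from -0.044 to 0.017 (both without WT UUO replicate 1). With GC correction and both libraries left out Ldha was 0.066, Acp1 -0.114, Serinc3 -0.026 and, against the endothelial knockouts, Noc2l 0.012. By library totals only Vegfa was -0.087, Acp1 -0.141 and Serinc3 -0.118, and with GC correction and sex Acp1 was -0.023. The cause was not tested. With 3 libraries a group, small changes of single genes and differences between knockouts stay below what these data resolve.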

Other observations

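Peroxisome and antioxidant genes, not described above, also moved in part. Of 16 peroxisome genes 6 rose and 1 fell (median 0.60), with 0 to 7 risen over the omissions of 1 library (0 without WT UUO replicate 1, 1 without Myc cKO UUO replicate 3, 2 without WT UUO replicate 3, 3 without WT UUO replicate 2). Pex11a, which drives peroxisome division, went from 7.27, 7.97 and 7.88 to 11.1, 14.1 and 35.1 CPM and rose by 1.38 ± 0.31 (adjusted p = 0.0123; lost without WT UUO replicate 1, at 0.0561). Hsd17b4, of peroxisomal fatty acid breakdown, rose by 0.55 ± 0.15 (adjusted p = 0.0247; lost without WT UUO replicate 1 or Myc cKO UUO replicate 3, at 0.0955 to 0.117). Gpx3, the secreted glutathione peroxidase made by proximal tubules, went from 660.3, 1102 and 962 to 1171, 2237 and 3677 CPM and rose by 1.38 ± 0.32 (adjusted p = 0.0133; lost without WT UUO replicate 1 or Myc cKO UUO replicate 3, at 0.0684 to 0.0702). Hmox1, the heme oxygenase of stressed tubules and macrophages, went from 32.5, 113 and 24.3 to 18.1, 11.1 and 18.5 CPM and fell by 1.83 ± 0.50 (adjusted p = 0.0285; lost without WT UUO replicate 2 or Myc cKO UUO replicates 2 and 3, at 0.0856 to 0.182).

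Phgdh, the first enzyme of serine synthesis, went from 11.8, 10.1 and 14.4 to 7.08, 4.25 and 7.95 CPM and fell by 0.92 ± 0.28 (adjusted p = 0.0423; lost without WT UUO replicates 1, 2 and 3 or Myc cKO UUO replicates 1, 2 and 3, at 0.0547 to 0.148). Among vessel growth ligands, Pgf fell by 2.55 ± 0.64 (adjusted p = 0.0203; lost without WT UUO replicate 1 or Myc cKO UUO replicates 2 and 3, at 0.0544 to 0.155) and Angpt2 by 0.84 ± 0.20 (adjusted p = 0.0149; lost without WT UUO replicate 1 or Myc cKO UUO replicates 2 and 3, at 0.059 to 0.0834).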
